A study of Mus musculus with 8 samples.

Results

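Ch25h, Cyp27a1, Nr1h3, Nr1h2, Abca1, Abcg1, Mylip, Nceh1 and Soat1 are genes with which a macrophage makes oxysterols, senses them, exports cholesterol and stores it as esters. Probes were taken where the array annotation names a RefSeq transcript of a gene of this set, which was drawn up as 10 genes; 9 have rows in the deposited value table, with 11 probes, among 26148 genes tested. The other gene is not analysed here. All 9 passed the filter on dim probes, and their brightest probes were well above background in both channels on all 8 arrays, with none saturated.

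Oxysterols are hydroxylated forms of cholesterol. They bind the liver X receptors (LXRs, encoded by Nr1h3 and Nr1h2), nuclear receptors that pair with retinoid X receptors and drive the transporter genes Abca1 and Abcg1, which hand cholesterol to apolipoproteins and to high density lipoprotein, and Mylip, which marks the low density lipoprotein receptor for degradation. Soat1 esterifies free cholesterol for storage in droplets, and Nceh1 frees it again. In macrophages Ch25h is also known as an interferon-inducible gene, and the balance of these steps sets whether the cell becomes a foam cell.

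The promoters of the gene with the largest difference, Ch25h, and of the best known LXR target, Abca1, are shown. The sequences are the 250 bases before the RefSeq start, on assembly GRCm38.p6 and written 5' to 3' on the gene's strand, with matches to the motifs searched in capitals. For Ch25h this is chr19:34475149-34475398 and for Abca1 chr4:53159896-53160145, both on the minus strand.
Ch25h: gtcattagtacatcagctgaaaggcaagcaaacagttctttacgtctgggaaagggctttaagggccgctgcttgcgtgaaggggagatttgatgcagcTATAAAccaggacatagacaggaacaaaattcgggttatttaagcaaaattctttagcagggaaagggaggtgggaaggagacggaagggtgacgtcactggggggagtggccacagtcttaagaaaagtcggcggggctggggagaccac
Abca1: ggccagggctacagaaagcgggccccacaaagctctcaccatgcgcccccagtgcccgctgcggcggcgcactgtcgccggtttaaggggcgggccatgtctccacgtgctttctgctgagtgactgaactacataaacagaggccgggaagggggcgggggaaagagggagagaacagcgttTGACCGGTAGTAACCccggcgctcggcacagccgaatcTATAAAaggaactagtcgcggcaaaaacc
The capitals in Abca1 are a match to the LXR type element (2 nuclear receptor core sites 4 bases apart), read on the opposite strand from -67 to -53, and a TATA box (TATAAA) from -29 to -24. The capitals in Ch25h are a TATAAA from -151 to -146. All motifs were searched on both strands of windows reaching 250 bases before and 50 after the start, which were given for 8 of the 9 genes (9 windows, 2 of them for Nr1h3). Abcg1 had no window, so its promoter was not searched. Of the 32851 windows in the RefSeq table, 0.718% hold the LXR type element, 13.6% hold TATAAA, 5.82% hold GGGNNTTCC (part of the NF-kB site) and 3.44% hold the core of the interferon-stimulated response element. Among the 8 genes with a window Abca1 alone had the LXR type letters, and Mylip also had a TATAAA (from -32 to -27). In 1 Nr1h3 window there was GGGNNTTCC (from -198 to -190), and the interferon-stimulated core was found in none of the windows. The printed motifs do not overlap, and a match is a description of letters, not of binding.

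The cells were peritoneal macrophages from mouse, kept in low-glucose medium with fetal bovine serum, and they received LECT2, a protein secreted mainly by the liver, at 0.5 µg/ml (low dose), 5 µg/ml (high dose) or 0 µg/ml (control). RNA was taken after 3.5 h or 48 h per the titles, while the channel labels of the early arrays give 3 h. Each of 8 Agilent arrays carried a LECT2 sample in Cy3 and its control, of the same time, in Cy5, which made 4 groups of 2 arrays from 2 experiments with different mice. Whether the low and high dose arrays of an experiment used the same control culture is not stated. The labels give no strain, sex or age and name no purification step beyond washing and plating. The dyes were never swapped, so a dye effect shared by all arrays and an effect of LECT2 cannot be told apart for a single gene, although it cancels in a difference between doses or times.

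The deposited values are log2 of control over LECT2, opposite to the order of the titles, and they are turned here, so that a positive value means more transcript with LECT2. The columns of the value table and the scanner files go against each other. Over 20622 probes above background in both channels on all arrays, 7 of the 8 columns followed the file recorded under another sample (r of 0.9899 or more with the scanner software's ratio), and replicate 1 of the low dose at 3.5 h followed its own file at r = 0.822 after loess, with the next file at 0.647. Results are given from the value table as labelled. With the files placed under the columns they follow ("matched files") the early arrays all lie on slide 1 and the late ones on slide 2, so that slide and time cannot be told apart. With the files placed as recorded, none of the 9 genes was called in any of the 8 comparisons, and at most 0.164% of all genes were. Which placement is right was not settled by the files used here. Ch25h shows the size of the conflict: as recorded, its log2 LECT2 over control was 4.81 and 1.17 at the low dose and 3.5 h, 4.49 and 0.03 at the high dose and 3.5 h, 4.86 and 1.73 at the low dose and 48 h, and 4.45 and -0.36 at the high dose and 48 h.

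Every effect below is a mean of 2 arrays (n = 2) ± SE, and a gene is said to rise or fall where limma's p, adjusted over all 26148 genes, was under 0.05. Precision is limited by having 2 arrays a group: the median SE over all genes was 0.28 for an effect and 0.40 for a difference of effects on the log2 scale. A change in a bulk culture cannot tell fewer cells of a type from less RNA per cell. At the low dose and 3.5 h, 1 of the 9 genes rose and 3 fell, where 4.89% of all genes were called (2.75% higher and 2.15% lower). With the high dose at 3.5 h 2 rose and 4 fell, against 21.9% of all genes (10.2% higher and 11.7% lower). At the low dose and 48 h none was called, against 0.172% of all genes (0.371% with the replicate number as a block), and 1 of the 9 had an unadjusted p under 0.05. With the high dose at 48 h 2 fell and none rose, against 11.2% of all genes (4.31% higher and 6.91% lower). Without the loosely following replicate 1 of the low dose at 3.5 h, which left 1 array in that group, fewer of the 9 genes were called at both doses at 3.5 h and at the high dose at 48 h. Fewer of all genes were called at both doses at 3.5 h too. With that array read from its own scanner file the counts were 4, 6, 0 and 2 in the 4 groups, where 3.68%, 25.5%, 0.451% and 14.5% of all genes were called. Under other scalings the split at 3.5 h moved: the matched files with loess gave 2 higher and 3 lower at the low dose, where 5.1% of all genes were higher and 4% lower. At the high dose the matched files centred on their medians gave 1 higher and 6 lower, where 11% of all genes were higher and 34.6% lower, and the value table centred on its column medians gave 1 higher and 4 lower, against 10.1% and 11.6%. In the 4 groups the median log2 of the 9 genes was -0.22, -0.36, 0.22 and -0.10 (low and high dose at 3.5 h, then at 48 h), beside 0.00, -0.03, 0.02 and -0.01 over all genes.

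**Figure D1:**
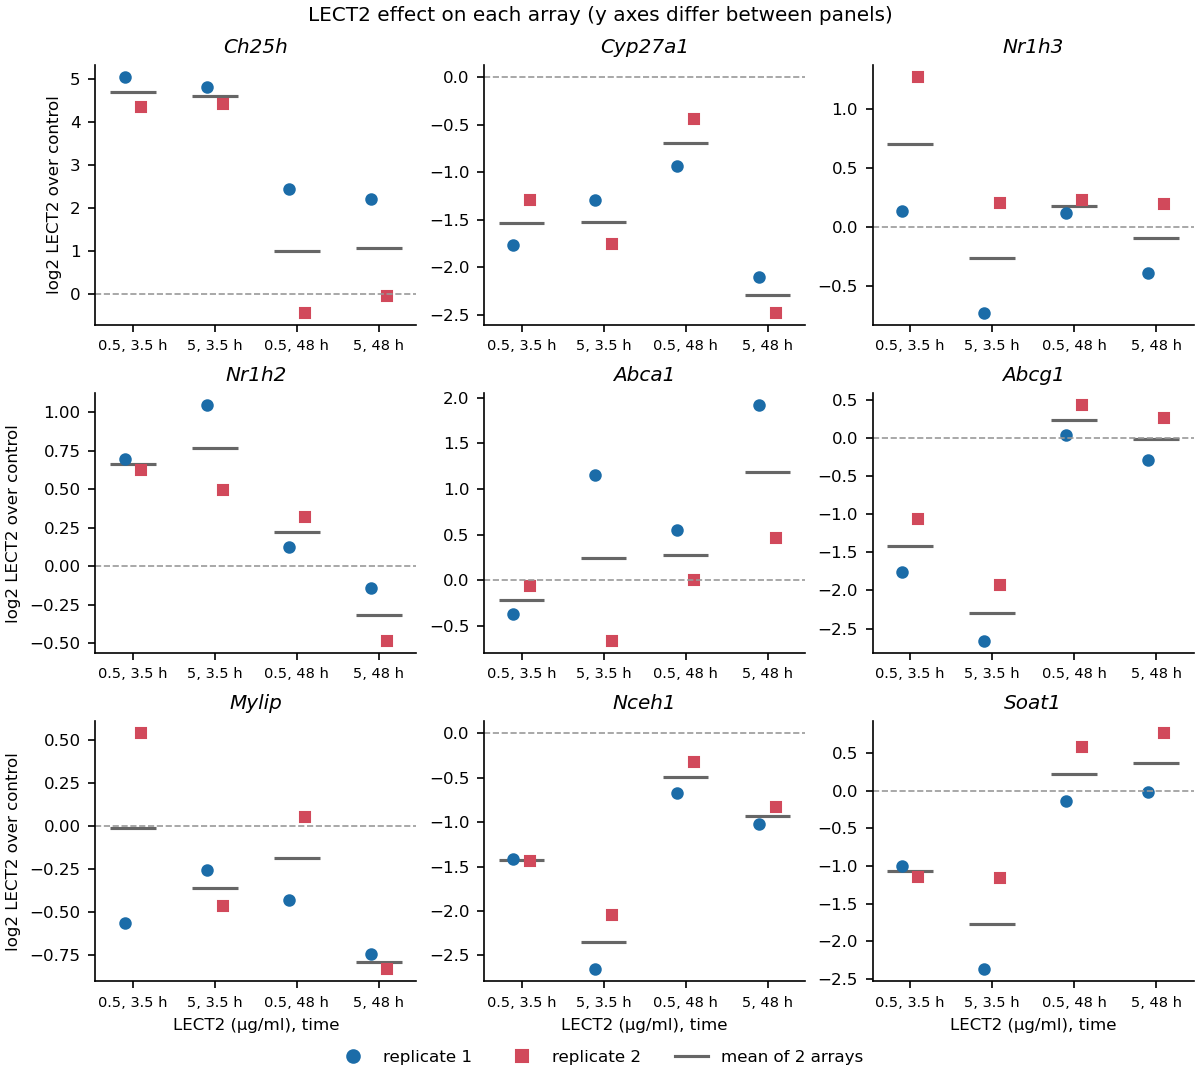
Log2 ratio of LECT2 over control for each of the 9 genes (y axis, scales differ between panels) on each array, by LECT2 dose in µg/ml and time (x axis); circles are replicate 1, squares replicate 2, and bars are means of 2 arrays. Ch25h lies between 4.37 and 5.05 on the 4 early arrays, while Abcg1 and Soat1 lie below 0 on the early arrays and around 0 on the late ones.

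The enzymes that make oxysterols went opposite ways at 3.5 h. Ch25h, the cholesterol hydroxylase whose product is secreted by activated macrophages, stood at log2 5.05 and 4.37 at the low dose and at 4.82 and 4.43 at the high dose. All 4 early arrays were high and the 2 doses overlapped. Ch25h rose 26.2-fold at the low dose (log2 4.71 ± 0.70, adjusted p = 0.0141) and 24.6-fold at the high dose (log2 4.62 ± 0.70, adjusted p = 0.00512). At 48 h replicate 1 stood at 2.46 (low) and 2.21 (high) and replicate 2 at -0.43 and -0.03, so the arrays of a group lay on opposite sides of 0 and neither mean passed the test (1.01, adjusted p = 0.691, and 1.09, adjusted p = 0.345). In the processed signals of the matched files, given as log2 relative to the array's median over the probes kept, the Ch25h control signal was -0.32, 0.07, -0.70 and -0.92 on the replicate 1 arrays and 1.89, 1.38, 1.16 and 0.91 on those of replicate 2 (low and high dose at 3.5 h, then at 48 h). The control was thus lower on the replicate 1 arrays at both times. The LECT2 signal was 4.74, 6.27, 4.97 and 5.87 on the early arrays and 1.74, 0.70, 1.29 and 0.85 on the late ones, without overlap between the times.

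Cyp27a1, the mitochondrial sterol hydroxylase of the other oxysterol branch, stood at log2 -1.77 and -1.30 at the low dose and -1.30 and -1.76 at the high dose at 3.5 h. Both doses covered the same range, and all 4 arrays were below 0. It fell 2.89-fold at either dose (log2 -1.53 ± 0.25 in each, adjusted p = 0.0191 at the low dose and 0.00673 at the high dose). At 48 h the low dose arrays stood at -0.94 and -0.44 (mean -0.69 ± 0.25, adjusted p = 0.421) and the high dose arrays at -2.11 and -2.48. The high dose arrays were the lowest of all 8, and there Cyp27a1 fell 4.90-fold (log2 -2.29 ± 0.25, adjusted p = 0.00504). After normexp and loess on the matched files the same effect was -1.43 (adjusted p = 0.00408). The difference between doses at 48 h was -1.60 ± 0.36, with groups that did not overlap, but it did not pass the test over all genes (adjusted p = 0.276).

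Without replicate 1 of the low dose at 3.5 h the low dose calls were lost for Ch25h (4.37, adjusted p = 0.108) and Cyp27a1 (-1.30, adjusted p = 0.188), and without replicate 2 they held (adjusted p = 0.0328 and 0.0392). The high dose calls at 3.5 h were lost without replicate 1 (adjusted p = 0.0822 for Ch25h and 0.0530 for Cyp27a1) and without replicate 2 (0.0509 and 0.0703), and at 48 h that of Cyp27a1 was lost without either array (0.0736 and 0.0772). In each of these fits the lone array was assumed to vary like the other groups. With only the arrays of the low dose at 3.5 h in limma's fit, its calls were also lost (adjusted p = 0.189 for Ch25h and 0.194 for Cyp27a1). In that fit 0% of all genes were called.

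**Figure D2:**
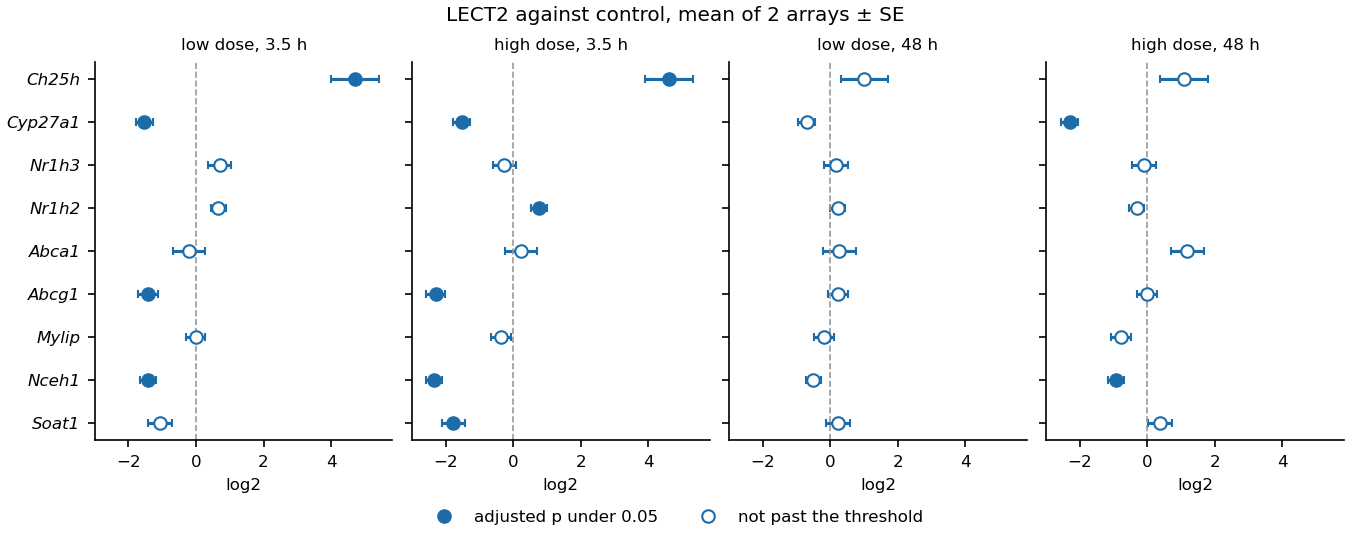
Mean log2 LECT2 over control (x axis) of the 9 genes (y axis) in the 4 groups, with bars of 1 SE from limma; filled points have an adjusted p under 0.05. Ch25h is far to the right at 3.5 h at both doses, at 4.71 and 4.62, and Cyp27a1 is filled in every panel but that of the low dose at 48 h.

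Of the 2 LXR genes, Nr1h2 rose in 1 group and Nr1h3 was called in none. Nr1h2 (LXR beta, the widely expressed form) stood at log2 0.69 and 0.63 at the low dose and 1.04 and 0.49 at the high dose at 3.5 h, above 0 on all 4 arrays. It rose 1.70-fold at the high dose (log2 0.77 ± 0.23, adjusted p = 0.0489) and did not pass the test at the low dose (0.66 ± 0.23, adjusted p = 0.145). That call was lost without replicate 1 (0.49, adjusted p = 0.346) or replicate 2 (1.04, adjusted p = 0.0744) of its group, and without replicate 1 of the low dose at 3.5 h (adjusted p = 0.0686). It was also lost with the replicate block (0.0505), with centred columns (0.0538), without the filter on dim probes (0.0825), with only the arrays compared (0.129), with the files as recorded (0.19, adjusted p = 0.903) and with median centring of the matched files, where the effect was 0.06 (adjusted p = 0.825) against a median of -0.27 over all genes. Of 15 alternatives, 6 kept the call. At 48 h its arrays stood at 0.12 and 0.32 (low) and -0.14 and -0.49 (high), with means of 0.22 (adjusted p = 0.806) and -0.32 (adjusted p = 0.399).

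Nr1h3 (LXR alpha, the form prominent in liver and macrophages) was read by 2 probes. The brighter stood at 0.13 and 1.27 at the low dose and -0.73 and 0.20 at the high dose at 3.5 h, with means of 0.70 ± 0.34 (adjusted p = 0.285) and -0.26 ± 0.34 (adjusted p = 0.618). At 48 h it stood at 0.12 and 0.23 (low) and -0.39 and 0.19 (high), and neither mean passed the test. The other probe gave 1.85 and 1.34, then -1.46 and 0.22, at 3.5 h and 0.12, 0.30, 0.73 and 0.31 at 48 h. The probes were furthest apart on replicate 1 of the low dose at 3.5 h, the column that followed its file only loosely: there the table has 0.13 and 1.85, and the file itself 0.99 and 0.86. With the matched files and loess the low dose effect at 3.5 h was 1.21 (adjusted p = 0.0214), and with median centring of these files the high dose effect at 3.5 h was -1.01 (adjusted p = 0.0226). No other alternative called Nr1h3 in any group.

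Of the 2 efflux transporters, Abcg1 fell at both doses at 3.5 h and Abca1 was called in no group. Abcg1, which passes cholesterol to high density lipoprotein, stood at log2 -1.76 and -1.07 at the low dose and -2.66 and -1.93 at the high dose at 3.5 h. All 4 arrays were below 0, and the high dose arrays lay below those of the low dose without overlap. It fell 2.67-fold at the low dose (log2 -1.41 ± 0.29, adjusted p = 0.0389) and 4.91-fold at the high dose (log2 -2.30 ± 0.29, adjusted p = 0.00284), and the difference between doses did not pass the test (-0.88 ± 0.41, adjusted p = 0.658). At 48 h it stood at 0.03 and 0.43 (low) and -0.29 and 0.25 (high), with means of 0.23 and -0.02. The low dose call was lost without replicate 1 (adjusted p = 0.317) or replicate 2 (0.0519), and the high dose call without replicate 1 (0.0541) but not without replicate 2 (0.0213).

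Abca1, which loads lipid-poor apolipoprotein and whose promoter above holds the LXR type letters, was not called in any group. Its arrays stood at -0.37 and -0.06 (low) and 1.15 and -0.67 (high) at 3.5 h, and at 0.55 and 0.00 (low) and 1.92 and 0.46 (high) at 48 h. Replicate 1 was the higher array in every group but the low dose at 3.5 h. The mean at the high dose and 48 h was 1.19 ± 0.48 (adjusted p = 0.147, 95% interval 0.08 to 2.30 unadjusted), and the other 3 means lay between -0.22 and 0.27. The adjusted p over all alternatives at the high dose and 48 h ranged from 0.0827 to 0.693.

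Mylip, the ligase that lowers the low density lipoprotein receptor, stood at -0.56 and 0.54 (low) and -0.25 and -0.46 (high) at 3.5 h and at -0.43 and 0.05 (low) and -0.74 and -0.83 (high) at 48 h. No mean passed the test, and the lowest was that of the high dose at 48 h (-0.79 ± 0.29, adjusted p = 0.123). There its dimmer probe stood at -2.39 and -2.20, with the LECT2 channel not well above background on either array, and the mean of both probes passed (-1.54, adjusted p = 0.0283). With median centring of the matched files Mylip passed at the high dose at both times (-1.07, adjusted p = 0.0112, and -1.33, adjusted p = 0.00648). At the high dose and 3.5 h that dimmer probe stood at 0.54 and -0.34.

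The genes of the cholesterol ester cycle fell together at 3.5 h at the high dose. Nceh1, the hydrolase that frees cholesterol from droplets, stood at log2 -1.41 and -1.44 (low) and -2.65 and -2.04 (high) at 3.5 h. The groups did not overlap, and both lay well below 0. It fell 2.69-fold at the low dose (log2 -1.43 ± 0.23, adjusted p = 0.0185) and 5.09-fold at the high dose (log2 -2.35 ± 0.23, adjusted p = 0.00137). At 48 h it stood at -0.67 and -0.32 (low, adjusted p = 0.532) and -1.03 and -0.83 (high), and it fell 1.90-fold at the high dose (log2 -0.93 ± 0.23, adjusted p = 0.0442). All 8 arrays of Nceh1 were below 0, as were those of Cyp27a1.

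Soat1, which makes the esters, stood at -1.0 and -1.15 (low) and -2.37 and -1.17 (high) at 3.5 h, again below 0 on all 4 arrays. It fell 3.41-fold at the high dose (log2 -1.77 ± 0.35, adjusted p = 0.0126) and did not pass the test at the low dose (-1.07 ± 0.35, adjusted p = 0.127). At 48 h the arrays stood at -0.14 and 0.59 (low) and -0.02 and 0.77 (high), on both sides of 0. Of these calls, that of Nceh1 at the high dose and 3.5 h held without either array of its group (adjusted p = 0.0318 and 0.0166). That of Soat1 was lost without replicate 1 (-1.17, adjusted p = 0.155) and held without replicate 2 (0.0283). The low dose call of Nceh1 was lost without replicate 1 (adjusted p = 0.141) or 2 (0.0746), and its call at 48 h was lost without replicate 1 (0.223) or 2 (0.194) of its group and without replicate 1 of the low dose at 3.5 h (0.0593).

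Differences between doses were not called for any gene on the array at either time (0% of 26148 genes; 1 of the 9 genes had an unadjusted p under 0.05 at each time). Between the times, 0.0994% of all genes were called at the low dose (0.0153% higher and 0.0841% lower at 48 h). None of the 9 genes was called there, and 5 of them had an unadjusted p under 0.05. Ch25h passed there with the matched files under loess (adjusted p = 0.0257) and under median centring (0.0333). At the high dose 8.3% were called (4.52% higher at 48 h and 3.78% lower). Among them were 3 of the 9 genes, all with a LECT2 effect higher at 48 h than at 3.5 h. The difference was 2.28 ± 0.41 for Abcg1 (adjusted p = 0.0242), 2.15 ± 0.50 for Soat1 (adjusted p = 0.0421) and 1.42 ± 0.33 for Nceh1 (adjusted p = 0.0428). In each of the 3 the early and late arrays did not overlap. The differences of Ch25h (-3.53 ± 1.00, adjusted p = 0.0685) and Nr1h2 (-1.09 ± 0.32, adjusted p = 0.0785) did not pass the test. That of Ch25h passed in 6 of 17 alternatives, among them the replicate block (adjusted p = 0.0263) and the matched files with loess (0.00787). That of Nr1h2 passed in 2 of 17, the matched files with loess (adjusted p = 0.0249) and the strict filter (0.0489). The matched files with loess gave 3 higher and 2 lower, where 8.69% of all genes were higher and 8.97% lower. Those centred on their medians gave 3 higher and 1 lower, against 4.7% and 3.45%. Leaving out any array of the high dose groups ended all 3 calls, with adjusted p from 0.0598 to 0.104 for Abcg1, 0.0613 to 0.160 for Soat1 and 0.0682 to 0.153 for Nceh1. Without replicate 1 of the low dose at 3.5 h that of Nceh1 was lost (0.0569).

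**Figure D3:**
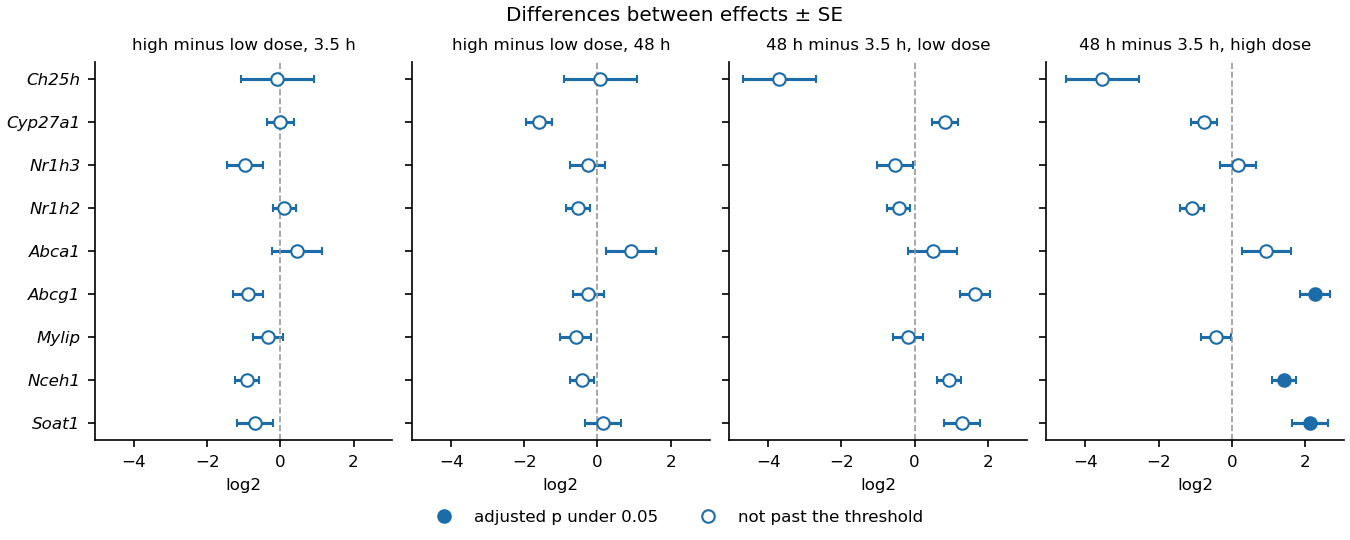
Differences between effects on the log2 scale (x axis) for the 9 genes (y axis), high minus low dose at each time and 48 h minus 3.5 h at each dose, with bars of 1 SE from limma; filled points have an adjusted p under 0.05. The filled points are Soat1, Nceh1 and Abcg1 at the high dose between times, at 2.15, 1.42 and 2.28.

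The channels of the matched files show on which side those differences lay. The control signal of Abcg1, relative to the array's median, was 4.98 and 3.81 (arrays of the low dose) and 4.74 and 4.30 (arrays of the high dose) at 3.5 h, and 2.56, 1.71, 2.33 and 1.63 at 48 h. Its LECT2 signal was 3.14, 2.78, 1.95 and 2.32 at 3.5 h and 2.58, 2.11, 2.04 and 1.85 at 48 h. The control signals of the 2 times did not overlap, whereas the LECT2 signals did. Soat1 had control signals of 4.62, 3.54, 4.30 and 3.59 at 3.5 h and 3.99, 3.75, 3.98 and 3.76 at 48 h, which overlapped. Its LECT2 signals of 3.67, 2.38, 1.83 and 2.43 at 3.5 h all lay below the 3.84, 4.32, 3.96 and 4.50 of 48 h. For Nceh1 at the high dose the times did not overlap in either channel: its control signal was 3.81 and 3.44 at 3.5 h and 3.09 and 3.20 at 48 h, and its LECT2 signal 0.89 and 1.20, then 2.07 and 2.34. These levels set slides against each other, and slide and time cannot be told apart in them.

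**Figure D4:**
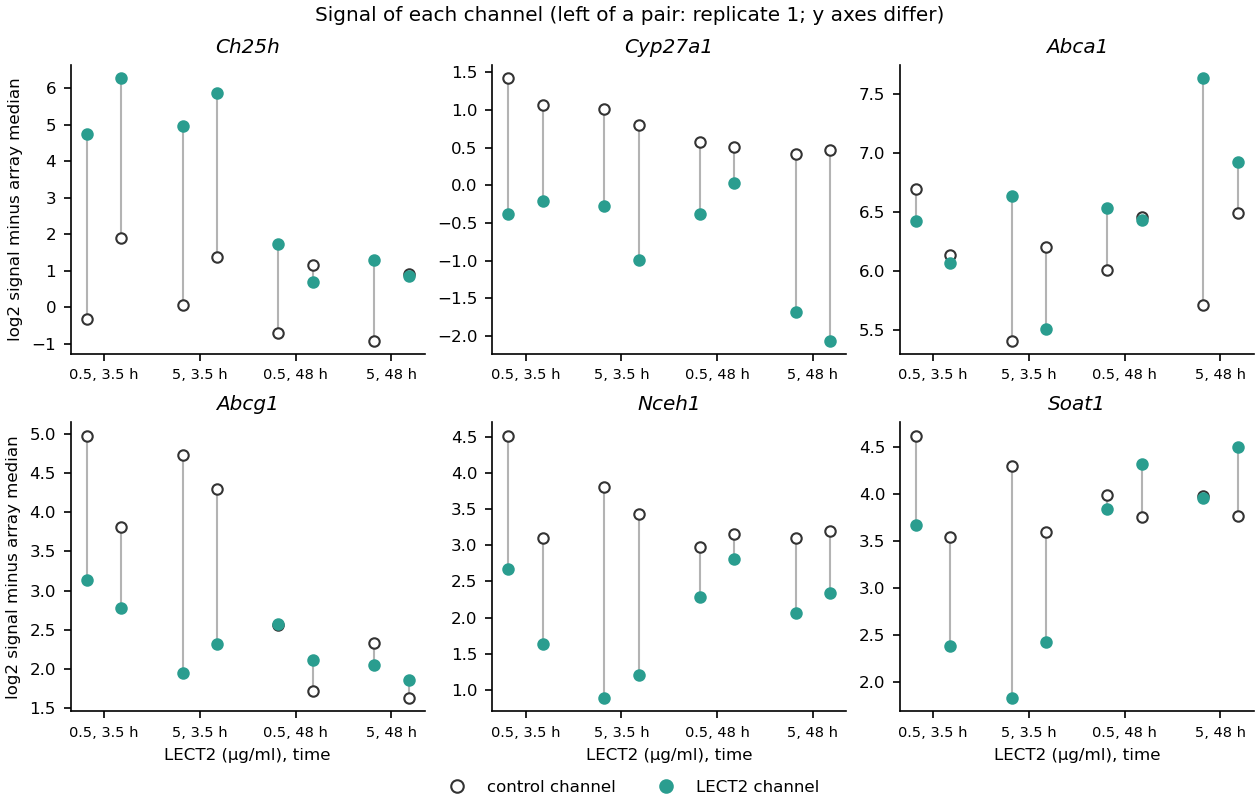
Processed signal of the control channel (open) and the LECT2 channel (filled) as log2 relative to the array's median (y axis, scales differ) for 6 of the genes, by dose in µg/ml and time (x axis), from the matched files; the left of each pair is replicate 1 and lines join the channels of an array. The control signal of Abcg1 is between 3.81 and 4.98 at 3.5 h and between 1.63 and 2.56 at 48 h.

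Other genes of cholesterol handling were counted in 5 lists with 68 genes tested. At the low dose and 3.5 h 3 rose and 3 fell, where 4.89% of all genes were called. With the high dose at 3.5 h 7 rose and 15 fell, against 21.9%. At 48 h none was called at the low dose, against 0.172%, and 2 rose and 12 fell at the high dose, against 11.2%. These shares are also the background of the counts for single lists below. The median log2 of the 68 was -0.28, -0.38, -0.09 and -0.32 in that order. With median centring of the matched files, where the median over all genes was -0.13, -0.27, -0.14 and -0.25, the counts were 3 higher and 16 lower, 7 and 38, 0 called, and 2 and 34, beside 13.2%, 45.6%, 0.325% and 33.3% of all genes called. Without replicate 1 of the low dose at 3.5 h, fewer list genes were called at the low dose and 3.5 h, where fewer of all genes were called too, and at the high dose and 48 h. With the files as recorded none of the list genes was called in these groups, and at most 0.164% of all genes were. Between the times at the high dose, the LECT2 effect was higher at 48 h for 1 list gene and lower for 6. Of all genes 8.3% were called there (4.52% higher and 3.78% lower). The higher one was Hsd3b7 (1.84 ± 0.39, adjusted p = 0.0335). Among the lower ones were Cyp46a1 (-3.08 ± 0.40, adjusted p = 0.0134), Gramd1a (-3.08 ± 0.34, adjusted p = 0.0111) and Lcat (-1.77 ± 0.34, adjusted p = 0.0261).

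Among 13 genes of oxysterol metabolism and sensing, 1 rose and 1 fell at the low dose and 3.5 h, 1 rose and 3 fell at the high dose and 3.5 h, and 2 fell at the high dose and 48 h. Cyp46a1, a cholesterol hydroxylase best known from neurons, stood at 2.79 and 2.60 (low) and 3.14 and 2.91 (high) at 3.5 h and between -0.46 and 0.36 at 48 h. It rose at both doses at 3.5 h (2.70 ± 0.28, adjusted p = 0.00487, and 3.02 ± 0.28, adjusted p = 0.00113). Gpr183, the receptor through which immune cells follow oxysterols derived from the Ch25h product, stood at -2.30 and -2.79 (low) and -2.43 and -1.85 (high) at 3.5 h and -1.41 and -0.37 (low) and -2.08 and -2.80 (high) at 48 h, below 0 on all 8 arrays. It fell in every group but the low dose at 48 h (-2.55, -2.14 and -2.44, each ± 0.33, adjusted p = 0.00923, 0.00529 and 0.00869), with its LECT2 channel well above background on only 1 of the 2 arrays at each dose at 3.5 h. Hsd3b7, an enzyme of bile acid and oxysterol breakdown, fell at the high dose and 3.5 h (-1.75 ± 0.27, adjusted p = 0.00551), and Insig1, the membrane protein through which oxysterols hold back sterol synthesis, at the high dose and 48 h (-1.62 ± 0.29, adjusted p = 0.0184).

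Of 15 LXR target genes other than those above, 1 fell at the low dose and 3.5 h, 2 rose and 6 fell at the high dose and 3.5 h, and 1 rose and 3 fell at the high dose and 48 h, so the list moved in both directions. Lpl, the lipoprotein lipase, fell at the high dose at 3.5 h (-2.20 ± 0.58, adjusted p = 0.0342) and at 48 h (-2.35 ± 0.58, adjusted p = 0.0426). At the low dose and 3.5 h its arrays stood at -2.88 and 0.11. Scd2, a fatty acid desaturase, fell at the high dose and 3.5 h (-2.14 ± 0.58, adjusted p = 0.0358) and Fasn, the fatty acid synthase, rose there (1.29 ± 0.23, adjusted p = 0.00820). Arl4c, a small GTPase linked to efflux, fell at the low dose and 3.5 h (-1.40 ± 0.24, adjusted p = 0.0204). Fads1, a fatty acid desaturase, and Pltp, the phospholipid transfer protein, fell at the high dose and 48 h (-1.15 ± 0.21, adjusted p = 0.0178, and -1.12 ± 0.27, adjusted p = 0.0401).

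Among the 15 genes of LXR partners and cofactors none was called at either low dose, 1 rose and 2 fell at the high dose and 3.5 h, and 2 fell at the high dose and 48 h. The early ones were the coactivator gene Ncoa1 (-1.24 ± 0.20, adjusted p = 0.00641), the LXR partner Rxra (-0.92 ± 0.26, adjusted p = 0.0408, LECT2 channel well above background on 1 of 2 arrays) and its relative Rxrg (1.23 ± 0.20, adjusted p = 0.00678), of which another probe went the opposite way. The late ones were 2 genes of the corepressor complex, Hdac3 (-1.05 ± 0.27, adjusted p = 0.0478) and Gps2 (-0.96 ± 0.23, adjusted p = 0.0371).

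Of 14 genes of lysosomal cholesterol release and ester handling 1 rose and 1 fell at the low dose and 3.5 h, 2 rose and 4 fell at the high dose and 3.5 h, and 1 rose and 2 fell at the high dose and 48 h. Lipa, the acid lipase that opens cholesterol esters in lysosomes, stood at -1.94 and -0.50 (low) and -1.92 and -2.12 (high) at 3.5 h and at -2.05 and -1.55 at the high dose and 48 h. It fell at the high dose at both times (-2.02 ± 0.36, adjusted p = 0.00892, and -1.80 ± 0.36, adjusted p = 0.0240). Npc1, which passes lysosomal cholesterol on, fell at 3.5 h at both doses (-1.10 ± 0.22, adjusted p = 0.0343, and -1.38 ± 0.22, adjusted p = 0.00567). Gramd1a, which carries cholesterol from the cell membrane to the endoplasmic reticulum, rose at 3.5 h (1.36 ± 0.24, adjusted p = 0.0250, and 1.98 ± 0.24, adjusted p = 0.00260) and fell at the high dose and 48 h (-1.10 ± 0.24, adjusted p = 0.0311). Soat2, the second esterifying enzyme, best known from liver and intestine, rose at the high dose and 48 h (1.81 ± 0.25, adjusted p = 0.00886), where Soat1 was not called.

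Of 11 further genes of efflux, acceptors and the receptors that Mylip marks, 1 rose at each dose at 3.5 h and 3 fell at the high dose and 48 h. The gene that rose was Lcat, which esterifies cholesterol on lipoproteins (1.44 ± 0.24, adjusted p = 0.0192, and 1.46 ± 0.24, adjusted p = 0.00654). The genes that fell were the lipoprotein receptor Lrp1 (-1.43 ± 0.31, adjusted p = 0.0312), the high density lipoprotein receptor Scarb1 (-1.10 ± 0.27, adjusted p = 0.0414) and Apoa1, the main protein of that lipoprotein, which was at least 2.16-fold lower since its LECT2 channel was not well above background on either array (adjusted p = 0.0264). This bound sets the dim channel at the lowest signal well above background on its array, or its own where higher.

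**Figure D5:**
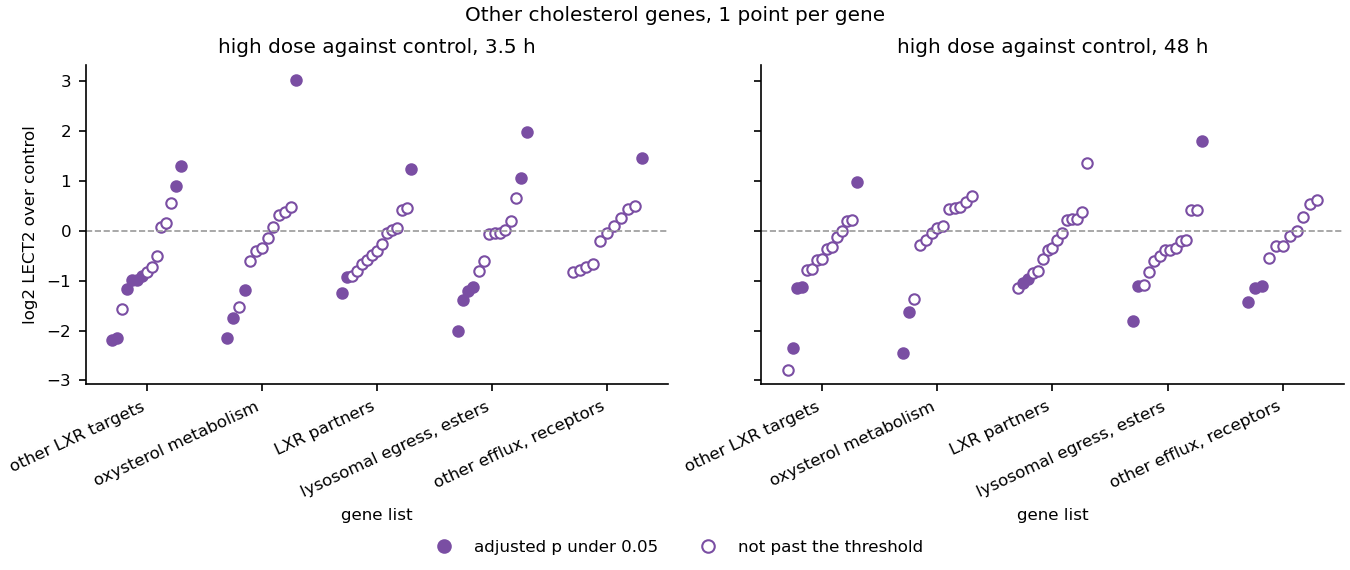
Log2 LECT2 over control (y axis) at the high dose at 3.5 h and 48 h, with 1 point for each gene of 5 lists of cholesterol handling (x axis), sorted within a list; filled points have an adjusted p under 0.05. In both panels filled points lie above and below 0, with 7 above and 15 below at 3.5 h and 2 above and 12 below at 48 h.

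As a description of likeness over the 8 arrays, the 3 named genes whose LECT2 effect followed that of Ch25h most closely among 16753 were Cxcl1 (Pearson r = 0.991), Ifna12 (0.981) and Plcd3 (0.977). For Abcg1 they were Pex26, Vgll4 and Oscp1 (each 0.987), and for Abca1 Mcl1 (0.974), Kat2b (0.972) and Fam91a1 (0.967). The arrays share dyes and slides, so these values carry no test.

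The cultures carried the macrophage label in their transcripts: 9 of 10 macrophage markers listed were on the array, and all 9 were well above background in the control channel on all 8 arrays. Markers of other cells were detected too. In the control channel all 4 B cell, all 5 T cell, 2 of 4 natural killer cell, 1 of 3 neutrophil, 2 of 5 mast cell, 3 of 4 dendritic cell, 5 of 7 mesothelial and fibroblast and 1 of 2 red cell markers on the array were well above background on all 8 arrays, and the red cell marker Alas2 on none. The summed signal of the dendritic cell markers was higher with LECT2 by log2 1.90 to 1.91 at the low dose and 2.38 to 2.44 at the high dose at 3.5 h and by 0.13 to 0.84 at 48 h, beside the early rise of Ch25h. Of these 4 markers at 3.5 h, 1 rose with the low dose (Zbtb46, 2.72). With the high dose 3 rose: Zbtb46 (3.31, with its other probe going the opposite way), Xcr1 (2.12) and Ccr7 (1.18). The control channel of Xcr1 was well above background on only 1 of those 2 arrays. At the low dose and 3.5 h Flt3 stood at 0.31 and 0.35 and Ccr7 at -0.12 and 0.45. Late, Ccr7 rose at the high dose (1.28). The summed signal of the mesothelial and fibroblast markers was lower with LECT2 on all arrays (differences from -2.28 to -0.06). The brightest of them in the control channel, Col1a2 (log2 13.2 to 16.1), stood at -0.59 to 0.07 on the replicate 1 arrays and -2.58 to -1.36 on those of replicate 2. On replicate 1 of the low dose at 3.5 h, the loosely following column, Msln stood at 1.44, Krt19 at 1.69 and Upk3b at -2.34. Msln and Krt19 were below 0 on every other array. Pdgfra, the only marker of this list called against control, stood between -3.91 and -1.09 on all arrays. It fell at both doses at 3.5 h and at the high dose and 48 h. Dcn stood at 0.85 and 0.02 at the high dose and 48 h. The summed signal of the macrophage markers differed by -0.44 to 0.78. The differences of the others ranged from -0.87 to 1.06 for B cells, 0.35 to 0.93 for T cells, 0.53 to 1.69 for natural killer cells, 0.17 to 2.97 for neutrophils, -1.62 to 1.00 for mast cells and -0.08 to 2.65 for red cells. Of the macrophage markers Lyz2 (-2.01) and Csf1r (-1.03) fell and Cd14 (2.77) rose at the high dose and 3.5 h, beside the falls of Abcg1, Nceh1 and Soat1. Gata6 fell (-1.03) and Timd4 rose (1.11) at the low dose and 3.5 h, and Gata6 (-1.35) and Mrc1 (-1.83) fell at the high dose and 48 h, beside the falls of Cyp27a1 and Nceh1. At the high dose and 48 h the neutrophil sum was higher with LECT2 by 2.31 to 2.97. Of its markers there S100a8 rose (3.19 and 2.78), S100a9 stood at -0.53 and -0.26, and Mpo at 0.79 and -1.12. Gzma and Nkg7 rose at the high dose and 3.5 h, and Gzma and Cd3g at the high dose and 48 h. Klrb1c fell at the high dose and 48 h, with its LECT2 channel not well above background on either array. The part of these markers in the results was not tested.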

How the data were processed

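The authors deposited a table of log2 ratios (control in Cy5 over LECT2 in Cy3, scale and direction found by setting its columns against the scanner files) and 8 scanner files. Per the file headers these hold spot intensity, background-corrected and dye-normalized processed intensity, and a log10 ratio of Cy5 over Cy3. Agilent Feature Extraction 10.7.3.1 made them, per the submitters' processing notes. How the value table was made is not given in the sources used here, and 0 of its columns were left unused. Over 20622 bright probes, the late columns differed from the software's ratio in the matched files by a median of 4.2e-07 or less. For the early columns this median absolute difference was 0.0361 to 0.132. The making of a column and time thus cannot be told apart in differences between the times.

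Here the sign was turned. Of 39428 probes, 31615 were kept, whose spots were called well above background (Cy3 or Cy5) on 2 arrays or more, and each gene was read by its brightest probe (26148 genes, 16754 with a symbol). Files were placed under columns by their values, and LECT2 and control channels were read from these matched files. limma 3.58.1 (R 4.3.3) fitted 1 mean for each of the 4 groups (4 residual degrees of freedom), with effects tested against 0, differences as contrasts, and p-values adjusted by Benjamini-Hochberg across the whole table (threshold 0.05). The script was tested on simulated data. Normexp on the scanner signals with an offset of 50, loess, median centring, other filters and variances, a replicate block and leaving out arrays were the alternatives. The series text names 2 experiments with different mice and the titles number 2 replicates, without stating that the number is the experiment. Deviations of same-numbered samples correlated from -0.06 to 0.47 between groups, highest between the late groups, and values with the number as a block stand beside the results they change.

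The members and lists were chosen with earlier results of these data known. Named genes are all members, up to 3 called genes with the largest change per list and comparison, the 3 most alike genes of Ch25h, Abca1 and Abcg1, and markers whose values stand beside a result. Promoters are from RefSeq (GRCm38.p6), while the array annotation is on mm9, so only gene names link them.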

Additional observations from a re-analysis of the deposited data

Results flagged for a closer look

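The effect of the high dose differed between the times for 3 genes by limma's contrast of 48 h minus 3.5 h. The difference was 2.28 on the log2 scale for Abcg1 (adjusted p = 0.0242), 2.15 for Soat1 (adjusted p = 0.0421) and 1.42 for Nceh1 (adjusted p = 0.0428), each higher at 48 h with early and late arrays that did not overlap. With the files placed as recorded the differences were -0.36, -0.05 and -0.07, and with the matched files slide and time cannot be told apart. Only the late columns of the value table equal the software's ratio closely, so the making of a column and time cannot be told apart either. With the matched files and loess, applied alike to all arrays, the differences were 2.13, 2.11 and 1.52.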

How the results depend on the processing

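The 9 genes gave 4, 6, 0 and 2 calls (low and high dose at 3.5 h, then at 48 h) and 0 and 3 between the times (low and high dose); the 68 list genes gave 6, 22, 0 and 14, then 0 and 7. Alternatives that moved a count by over 1.5 times follow, and the cause was not tested. The matched files with loess gave 1 and 5 of the 9 genes between the times, and of the list genes 12 at the low dose and 3.5 h and 3 and 13 between the times. There 9.1% of all genes were called at the low dose and 3.5 h, and 0.876% and 17.7% between the times. With the files as recorded the counts of the 9 and of the list genes were all 0, and at most 0.164% of all genes were called. Median centring of the matched files gave 4 of the 9 at the high dose and 48 h and 1 between the times at the low dose. Of the list genes it gave 19 and 45 at 3.5 h, 36 at the high dose and 48 h, and 1 between the times at the low dose. Of all genes it called 13.2% and 45.6% at 3.5 h, 33.3% at the high dose and 48 h, and 0.421% between the times at the low dose. For the high dose at 48 h the processed signals, no filter, a trended robust variance and only the arrays compared each gave 1 of the 9. They called 11.3%, 5.19%, 10% and 10% of all genes. Only the arrays compared gave 0 of the 9 and 0 list genes at the low dose and 3.5 h, where 0% of all genes were called. There limma's adjusted p was 0.189 for Ch25h and Nceh1, 0.194 for Cyp27a1 and 0.216 for Abcg1. Between the times at the high dose this fit gave 4 list genes, against 6.11% of all genes. No filter gave 1 of the 9 between the times at the high dose, and of the list genes 14 (high dose, 3.5 h), 6 (high dose, 48 h) and 2 (between the times, high dose). Of all genes it called 12.7%, 5.19% and 2.89% in these 3 comparisons. The strict filter gave 5 of the 9 between the times at the high dose, against 15.2% of all genes, and 1 list gene between the times at the low dose, against 0.208%. Leaving out 1 array left a group with 1 array, and it lowered the counts of the 9 genes wherever there had been calls. The counts of list genes and of all genes mostly fell too. The replicate block changed the call of Nr1h2 at the high dose and 3.5 h (0.77, adjusted p = 0.0505), leaving 5 calls there, against 23.1% of all genes. It also changed that of Ch25h between the times at the high dose (-3.53, adjusted p = 0.0263), giving 4, against 9.39% of all genes. It changed no other call among the 9 genes. Slide as a block could not be fitted with the matched files, where each slide holds 1 time, and equals the replicate block with the files as recorded. The calls of Nr1h2 at the high dose and 3.5 h (adjusted p = 0.0825), of Abcg1 at the low dose and 3.5 h and of Nceh1 at the high dose and 48 h were lost without the filter (0.0639 for Abcg1 and 0.0749 for Nceh1), and those of Abcg1 and Nceh1 also with the trended variance (0.0584 and 0.0767).

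Values that changed sign were as follows. With the files as recorded: at 3.5 h, Abca1 0.14 (low) and Nr1h3 0.83 (high); at 48 h and the low dose, Abcg1 -1.37, Nr1h3 -0.47 and Soat1 -1.11; at 48 h and the high dose, Abca1 -0.37, Nr1h3 0.26, Nr1h2 0.47 and Soat1 -0.22; between doses at 48 h, Cyp27a1 0.27; between times at the low dose, Ch25h 0.31, Cyp27a1 -0.23, Abcg1 -0.48, Nceh1 -0.72 and Soat1 -0.62, and at the high dose, Abcg1 -0.36, Nr1h2 0.29, Nceh1 -0.0732 and Soat1 -0.0466. With median centring: Abca1 -0.57 (high, 3.5 h), Soat1 -0.33 (high, 48 h) and, at the low dose and 48 h, Abca1 -0.45, Abcg1 -0.25, Nr1h3 -0.30, Nr1h2 -0.30 and Soat1 -0.23. Mylip with the low dose at 3.5 h was 0.0206 with the matched files and loess, and 0.0178 with only replicate 1 taken from its file, an alternative chosen after seeing the data. Abcg1 at the high dose and 48 h was 0.0011 with the matched files and loess and 0.00802 with centred columns, and Nr1h3 there was 0.21 as a mean of its probes. Leaving out 1 array moved Mylip from -0.56 to 0.54, Abca1 (high) from -0.67 to 1.15 and Nr1h3 (high) from -0.73 to 0.20 at 3.5 h. At the low dose and 48 h it moved Ch25h from -0.43 to 2.46, Mylip from -0.43 to 0.0545 and Soat1 from -0.14 to 0.59. At the high dose and 48 h it moved Ch25h from -0.0297 to 2.21, Abcg1 from -0.29 to 0.25, Nr1h3 from -0.39 to 0.19 and Soat1 from -0.0181 to 0.77. No other sign changed among the effects and differences run for the 9 genes.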
